A study of Mus musculus with 29 samples.

Results

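The fibrinogen, Lcn2 and metallothionein genes were examined as 3 loci of mouse liver chromatin, holding 6 genes: Fga, Fgb and Fgg, Lcn2, and Mt1 and Mt2. The loci were set by position alone in the mm9 build: chromosome 3 from 82.77 to 82.91 Mb (140 kb), chromosome 2 from 32.19 to 32.30 Mb (110 kb) and chromosome 8 from 96.64 to 96.76 Mb (120 kb). All peaks and ChIP-exo borders centred in these windows were taken. Overlapping glucocorticoid receptor (GR) peaks of the 6 GR lists were merged into regions, of which the windows held 30 of 15329. Each region is called here by its locus and its order along the chromosome: F1 to F14 at the fibrinogen genes, L1 to L11 at Lcn2 and M1 to M5 at the metallothioneins. The windows also held 34 of 30780 regions bound by C/EBPβ, and 1137 of 255667 listed ChIP-exo borders.

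The study mapped GR by ChIP-seq and ChIP-exo to the chromatin of whole liver from male 12-week-old WT (GR+/+ litter-mates) and GRdim mice, both on a BALB/c background after back-crossing. Livers were taken at 6am, the start of the light phase of a 12 h cycle, at 6pm, the start of the dark phase, and at 6am after 24 h with subcutaneous prednisolone pellets at 12 mg/kg. No placebo pellet is named for the untreated groups. C/EBPβ was mapped by ChIP-seq in WT liver alone, in these 3 conditions. Since each list pools 2 replicates, no value below has a replicate error and no difference between conditions or genotypes was tested; every comparison is between libraries. Whole liver holds several cell types, and fewer cells with a bound site and less binding per cell cannot be told apart.

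GR is a nuclear receptor that glucocorticoids move to the nucleus, where it binds DNA either as a pair of receptors on a palindromic element or next to other factors. GRdim carries a point mutation in the dimerization surface of the DNA-binding domain. C/EBPβ is a leucine-zipper factor of hepatocytes and a known regulator of acute-phase genes. Fga, Fgb and Fgg encode the α, β and γ chains of fibrinogen, the clotting protein that the liver secretes and increases in the acute-phase response. Lcn2 encodes lipocalin 2, a secreted protein that binds bacterial siderophores. Mt1 and Mt2 encode metallothioneins, small metal-binding proteins known to be induced by metals and by glucocorticoids. In the RefSeq gene order the fibrinogen genes lie between Lrat and Plrg1, Lcn2 between 1110008P14Rik and Ptges2, and Mt2 and Mt1 between Mt3 and Nup93. Peaks were assigned to a locus by its window only, and not to a gene, exon or intron, since no mm9 annotation was used here.

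The 250 bases before the annotated start of 5 member genes are shown because they hold letters that C/EBP factors or GR recognise, which are in capitals: TTGCNNAA on either strand for C/EBP, and AGAACA on either strand, the GR half-site. They are from RefSeq on GRCm38.p6, at chr3:83007474-83007723 (plus strand), chr3:83025903-83026152 (plus), chr3:83049864-83050113 (minus), chr2:32387740-32387989 (minus) and chr8:94172368-94172617 (plus). They were not placed against the mm9 peaks, because the builds differ.
Fgg: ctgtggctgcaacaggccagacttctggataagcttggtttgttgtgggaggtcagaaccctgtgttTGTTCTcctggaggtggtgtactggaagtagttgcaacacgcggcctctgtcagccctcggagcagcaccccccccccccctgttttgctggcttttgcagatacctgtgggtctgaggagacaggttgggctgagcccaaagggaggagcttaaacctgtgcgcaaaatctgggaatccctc
Fga: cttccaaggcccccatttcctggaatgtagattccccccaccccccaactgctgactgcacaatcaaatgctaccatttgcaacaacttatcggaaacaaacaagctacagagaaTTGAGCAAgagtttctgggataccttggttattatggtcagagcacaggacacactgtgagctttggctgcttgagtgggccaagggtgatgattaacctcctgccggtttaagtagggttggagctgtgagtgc
Fgb: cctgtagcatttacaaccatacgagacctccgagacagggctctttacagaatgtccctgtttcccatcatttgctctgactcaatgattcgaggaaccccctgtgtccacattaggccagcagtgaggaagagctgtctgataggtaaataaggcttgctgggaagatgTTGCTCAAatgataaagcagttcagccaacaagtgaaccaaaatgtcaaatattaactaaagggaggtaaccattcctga
Lcn2: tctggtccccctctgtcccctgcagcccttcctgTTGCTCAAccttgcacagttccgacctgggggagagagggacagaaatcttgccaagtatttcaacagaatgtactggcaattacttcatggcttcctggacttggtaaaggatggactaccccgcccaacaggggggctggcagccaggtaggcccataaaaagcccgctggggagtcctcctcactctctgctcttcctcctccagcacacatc
Mt2: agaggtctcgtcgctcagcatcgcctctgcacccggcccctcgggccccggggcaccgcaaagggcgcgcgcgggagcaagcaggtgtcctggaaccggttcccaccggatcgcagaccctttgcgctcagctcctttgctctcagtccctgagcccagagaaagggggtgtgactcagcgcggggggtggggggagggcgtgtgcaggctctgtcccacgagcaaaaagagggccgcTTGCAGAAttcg

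The C/EBP letters were present in the promoters of 4 of the 6 genes, counting 250 bases before to 50 after the start. Over 32544 promoters of that length, 10.8% held them. The match was the same 8 letters, TTGCTCAA, at -80 in Fgb and at -216 in Lcn2. The Fga match lay at -135 on the other strand, TTGAGCAA as printed, and the Mt2 match, TTGCAGAA, lay at -12. The GR half-site was found in Fgg alone, at -183, against 18.9% of all promoters. A full GR palindrome (AGNACA, any 3 bases, TGTNCT) was in none of the 6 and in 0.0645% of all promoters. The STAT letters TTCNNNGAA were present in Fga and Fgb and in 8.33% of all promoters. The core of the metal response element, TGCNCNC, matched in 4 of the 6, with 6 matches in Mt2 and 3 in Mt1, but 51.3% of all promoters held it. An NF-κB motif matched in 3 of the 6 and in 51% of all promoters, and an HNF1 motif in none of the 6 and in 0.00922%. The metal and NF-κB matches can overlap others. A match describes letters in these windows only.

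The windows were dense in GR peaks. At 6am in WT they held 10 peaks at the fibrinogen genes, 7 at Lcn2 and 3 at the metallothioneins, which is 71.4, 63.6 and 25 peaks per Mb against 2.26 per Mb over the whole list. GRdim at 6am gave 50.0, 36.4 and 16.7 per Mb against 1.25. These densities describe windows that were chosen for their genes. Of the 30 regions, 19 were listed in both genotypes, where 48.4% of all GR regions were, and 11 in WT alone (48.6% of all). None was listed in GRdim alone, against 3.09% of all. Regions in all 6 lists numbered 11, against 10.1% of all GR regions, and regions in 1 list numbered 6, against 40.7%. The 11 were F2, F9, F10, F11 and F14, L3, L4, L7 and L8, and M1 and M2.

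List by list, 13 of 20 WT peaks of the loci at 6am were also listed in GRdim (65.0%, Wilson 95% interval 43.3% to 81.9%), against 47.5% of the list. At 6pm the count was 15 of 23 (background 49.4%), and after prednisolone 14 of 23 (background 48.5%). With the higher-scoring 50% of each list, the counts were 12 of 17 at 6am, 14 of 20 at 6pm and 5 of 15 (33.3%) after prednisolone. No share over all peaks is given here for that setting. In the other direction, 13 of 13, 15 of 17 and 14 of 14 GRdim peaks of the loci were listed in WT, against 86.2%, 94.7% and 65.1% of the 3 GRdim lists. The intervals count peaks only and are wide at this number.

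Where a region was listed in both genotypes, its score was usually the lower one in GRdim. The score is a value that the authors gave each peak, in a unit that the labels do not state. The GR lists start at scores of 2.00 to 2.03, so a peak that is not listed can be a weak one. At 6am the GRdim score was the lower in 12 of 13 regions of the loci, against 72.2% of all shared regions, and at 6pm in 15 of 15, against 92.6%. After prednisolone it was the lower in 11 of 14, against 58.7%. The median ratio of the GRdim to the WT score was 0.785, 0.603 and 0.737 in the 3 conditions, and 0.865, 0.675 and 0.941 over all shared regions.

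**Figure D1:**
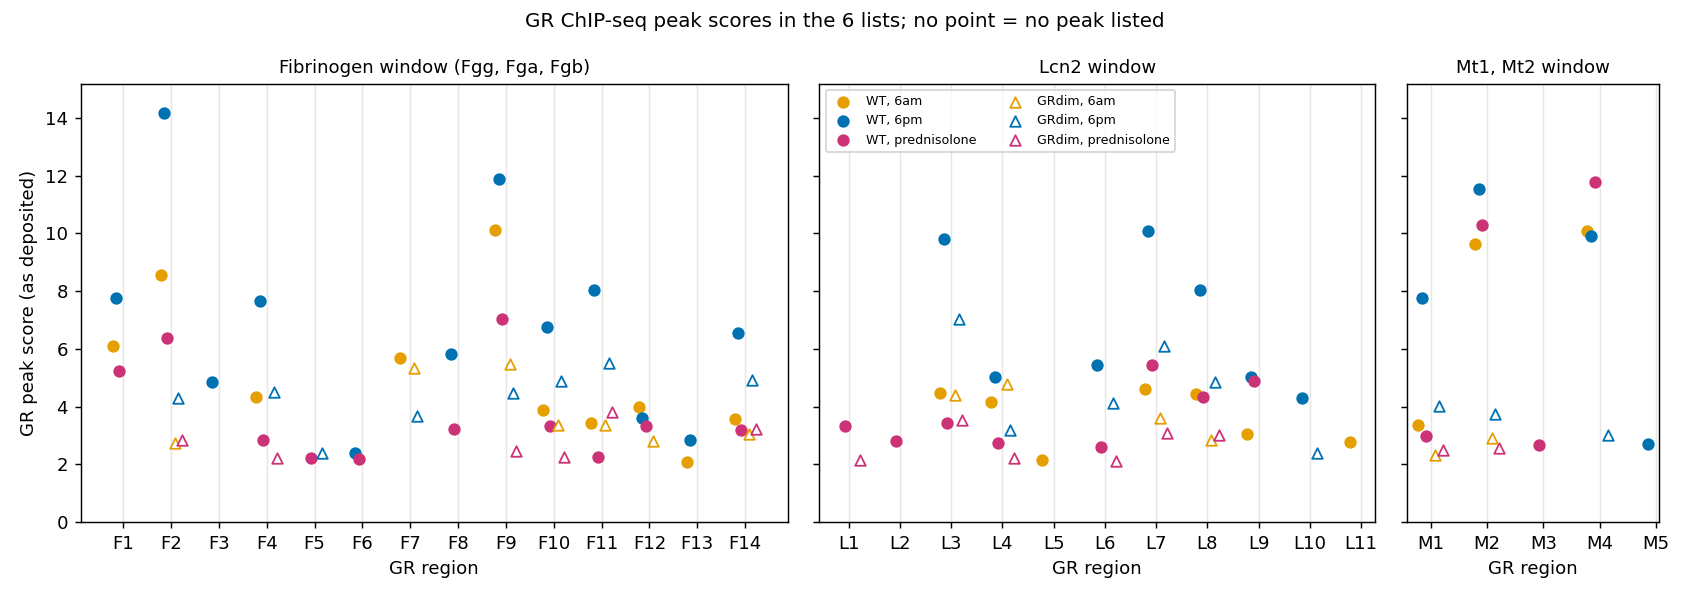
GR ChIP-seq peak score (vertical axis, as deposited) at each of the 30 regions in genome order, with filled circles for WT, open triangles for GRdim and 1 colour per condition. F2, F9, M2 and M4 have the highest WT scores of their loci, and the triangles of M2 and M4 lie between 2.56 and 3.76.

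At the fibrinogen genes, 14 GR regions spanned 51.9 kb. F2 (chr3:82807062-82807320) had WT scores of 8.56 at 6am, 14.18 at 6pm and 6.38 after prednisolone, and GRdim scores of 2.75, 4.29 and 2.86. All 3 WT values lay above all 3 GRdim values. F9 (chr3:82829833-82830089) had WT scores of 10.12, 11.88 and 7.02 and GRdim scores of 5.46, 4.46 and 2.45, again without overlap. F2 and F9 gave the best ranks of the locus in the WT lists: F9 ranked 134 of 5781 at 6am and 395 of 4304 after prednisolone, and F2 ranked 162 of 14270 at 6pm.

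Other fibrinogen regions differed less between genotypes. F11 (chr3:82843684-82843932) had WT scores of 3.43, 8.04 and 2.25 and GRdim scores of 3.36, 5.51 and 3.83, so the GRdim score was the higher one after prednisolone. F14 (chr3:82856099-82856343) had WT scores of 3.58, 6.54 and 3.19 and GRdim scores of 3.04, 4.92 and 3.23. F10 (chr3:82842913-82843144) had WT scores of 3.88, 6.76 and 3.34 and GRdim scores of 3.36, 4.88 and 2.27. In these 3 regions the WT and GRdim values overlapped across conditions. Within each condition the GRdim score was the lower one at F10. At F11 and F14 it was the lower one at 6am and 6pm only. F4 (chr3:82811400-82811627), with WT scores of 4.34, 7.67 and 2.85, was listed in GRdim at 6pm (4.50) and after prednisolone (2.23). F12 (chr3:82853774-82854036), with WT scores of 4.00, 3.62 and 3.34, was listed in GRdim at 6am alone (2.82).

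F1 (chr3:82804494-82804722) was listed in all 3 WT lists, at 6.09, 7.75 and 5.25, and in no GRdim list. F3 (chr3:82808765-82808964) was listed at 6pm in WT alone, with a score of 4.86. F5, F6 and F13 were weak: their scores lay between 2.09 and 2.85 wherever they were listed. F6 and F13 were listed in WT alone, in 2 lists each, and F5 was listed in WT after prednisolone and in GRdim at 6pm.

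F7 (chr3:82824192-82824425) and F8 (chr3:82824433-82824634) lay 7 bp apart and overlapped the same C/EBPβ region, so they may be 1 bound region whose called centre differs between lists. Joined, an alternative added after seeing the data, they would be 1 region of both genotypes and of all 3 WT lists, leaving 29 regions, with 19 in both genotypes and 10 in WT alone. F7 was listed in WT at 6am (5.67) and in GRdim at 6am (5.35) and 6pm (3.69). F8 was listed in WT at 6pm (5.81) and after prednisolone (3.23). Read alone, the lists would make F8 a region of WT, but the ChIP-exo borders, described further on, were listed at F8 in every library of both genotypes.

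At Lcn2, 11 GR regions spanned 36.8 kb. L7 (chr2:32274002-32274264) had WT scores of 4.61, 10.09 and 5.44 and GRdim scores of 3.62, 6.11 and 3.09. L3 (chr2:32264012-32264250) had WT scores of 4.49, 9.79 and 3.42 and GRdim scores of 4.41, 7.02 and 3.53. L8 (chr2:32274901-32275201) had WT scores of 4.45, 8.04 and 4.35 and GRdim scores of 2.86, 4.85 and 3.01. In all 3 regions the 6pm score was the highest in each genotype, and the ranges of the genotypes over the conditions overlapped. Within each condition the GRdim score was the lower one at L7 and L8. At L3 it was the lower one at 6am and 6pm only. L4 (chr2:32264737-32264957) had WT scores of 4.15, 5.01 and 2.74 and GRdim scores of 4.77, 3.20 and 2.23, with the GRdim value the higher at 6am. L6 (chr2:32273033-32273258) was listed at 6pm (5.44 in WT, 4.14 in GRdim) and after prednisolone (2.59 and 2.12), and L10 (chr2:32279603-32279819) at 6pm alone (4.31 and 2.39).

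L9 (chr2:32276293-32276509) was listed in all 3 WT lists, at 3.04, 5.01 and 4.88, and in no GRdim list. F1 and L9 were the 2 regions of the 30 with this pattern, against 3.56% of all GR regions. L1 (chr2:32243312-32243561) was listed after prednisolone alone, at 3.34 in WT and 2.16 in GRdim. L2, L5 and L11 were each listed in 1 WT list, at scores from 2.17 to 2.81.

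The metallothionein window held 5 GR regions over 17.9 kb, and at M2 and M4 the scores of the genotypes did not overlap. M4 (chr8:96702809-96703072) had WT scores of 10.09, 9.90 and 11.78, and was listed in GRdim at 6pm alone, at 3.02. M2 (chr8:96695176-96695514) had WT scores of 9.63, 11.55 and 10.28 and GRdim scores of 2.93, 3.76 and 2.56. The lowest WT score of either region, 9.63, was far above the highest GRdim score, 3.76. In WT after prednisolone M4 ranked 120 of 4304, the best rank of the window. M1 (chr8:96689089-96689395) had WT scores of 3.35, 7.75 and 3.00 and GRdim scores of 2.31, 4.04 and 2.49. These overlapped across conditions, but within each condition the GRdim score was the lower one. M3 and M5 were each listed in 1 WT list, at 2.66 after prednisolone and at 2.70 at 6pm.

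The 6pm score was the highest of the 3 conditions in 14 of the 16 regions listed in all WT lists, and in 88.9% of all such regions of the series. In GRdim it was the highest in 9 of 11, against 86.2%. The exceptions in WT were F12, highest at 6am, and M4, highest after prednisolone. From 6am to prednisolone the WT score was lower in 12 of 16 regions, against 65.7% of all regions listed in both. All 8 fibrinogen regions in that comparison had the lower score after prednisolone, with a median ratio of 0.790 against 0.884 over all regions. At Lcn2 3 of 5 and at the metallothioneins 1 of 3 had the lower score.

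C/EBPβ was listed at most GR peaks of the fibrinogen genes. In WT, 10 of 10 fibrinogen GR peaks at 6am, 11 of 12 at 6pm and 11 of 11 after prednisolone overlapped a C/EBPβ peak listed in that condition. At Lcn2 the counts were 3 of 7, 5 of 7 and 4 of 8, and at the metallothioneins 2 of 3, 3 of 4 and 3 of 4. Over the 3 loci together they were 15 of 20, 19 of 23 and 18 of 23, against 79.7%, 83.2% and 75.7% of the whole lists. L9, L5 and L6 were among the Lcn2 GR regions with no C/EBPβ peak in any list. Of the 34 C/EBPβ regions, 22 overlapped a GR region, against 41.1% of all C/EBPβ regions, and 19 were in all 3 lists, against 53.7%.

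The highest C/EBPβ scores of the windows at 6am and 6pm were at F9 (16.68, 14.30 and, after prednisolone, 11.85) and at F10 (16.48, 15.53 and 15.01). After prednisolone F10 was followed by L7 (12.89). F9 ranked 55 of 21644 peaks at 6am and F10 45 of 21941 after prednisolone. F10, with the highest C/EBPβ score of the loci after prednisolone, had a GR score of 3.34 there. The C/EBPβ score of F2 was 10.29, 11.40 and 8.29, and that of F4 was 10.57, 10.25 and 6.93. Of 12 fibrinogen C/EBPβ regions listed in both conditions, 10 had the lower score after prednisolone than at 6am.

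C/EBPβ at the other loci did not show this order. At L7 the C/EBPβ score was 11.53, 13.04 and 12.89, and at L8 7.35, 9.40 and 9.84. L1 had a C/EBPβ score of 4.50 at 6am, 6.43 at 6pm and 11.13 after prednisolone, a ratio of 2.47 from 6am to prednisolone. GR was listed at L1 after prednisolone alone, as it was at L2 and M3. At M4 the C/EBPβ score was 4.14, 4.57 and 6.86, and at M2 4.62, 6.02 and 5.67. Over the 3 loci the score was lower after prednisolone in 12 of 19 C/EBPβ regions, against 59.6% of all, made up of 10 of 12 at fibrinogen, 2 of 5 at Lcn2 and 0 of 2 at the metallothioneins.

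The other C/EBPβ regions overlapped no GR region of any list. At fibrinogen the highest of them at 6am and 6pm was chr3:82826799-82827004, with scores of 7.56, 6.61 and 5.35 in the order 6am, 6pm and prednisolone. After prednisolone the highest was chr3:82815150-82815354, with scores of 6.63, 6.46 and 5.57. At Lcn2 the highest were chr2:32280535-32280734 at 6am (3.01) and chr2:32292631-32292830 after prednisolone (2.91), with none at 6pm. At the metallothioneins they were chr8:96738275-96738476 at 6am and 6pm (2.21 and 2.56) and chr8:96707062-96707375 after prednisolone (2.37).

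**Figure D2:**
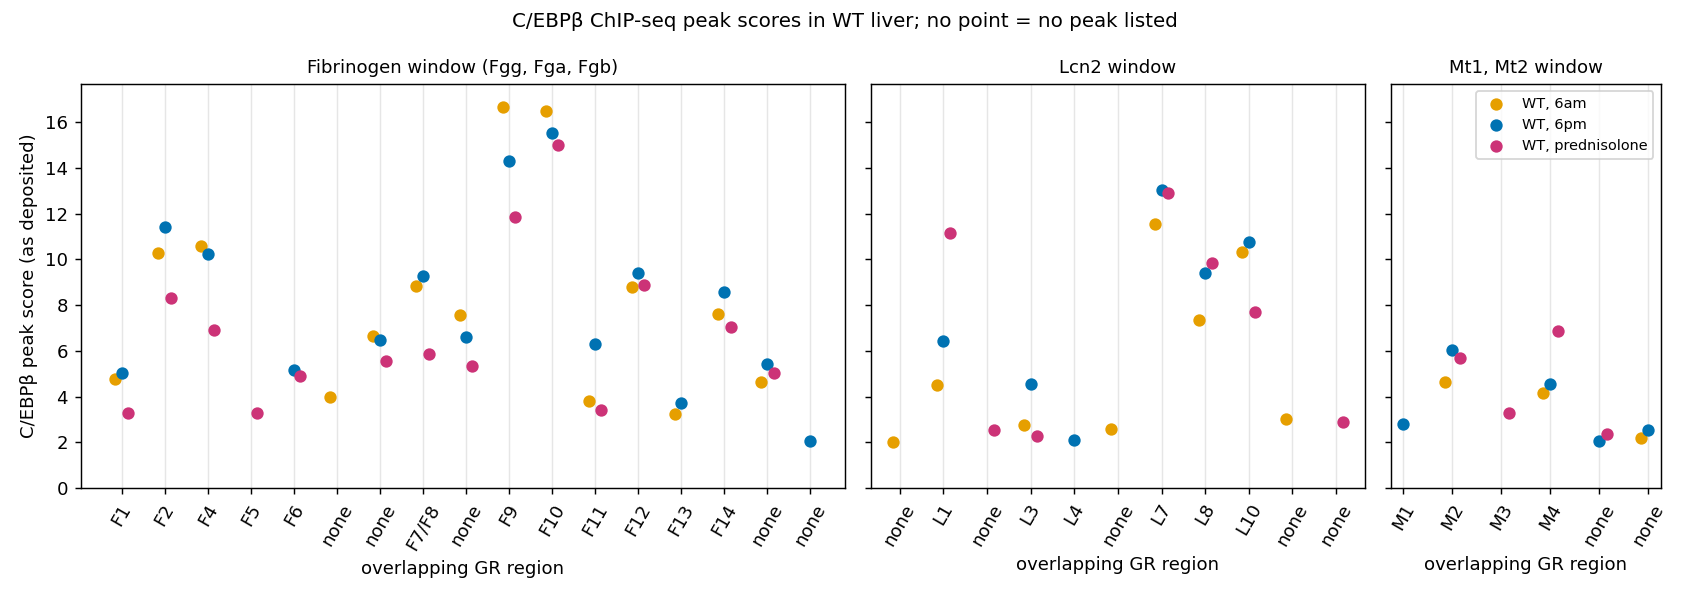
C/EBPβ ChIP-seq peak score (vertical axis, as deposited) in WT liver at each C/EBPβ region in genome order, labelled with the GR region it overlaps or "none", with 1 colour per condition. F9 and F10 stand highest at 6am and 6pm and F10 and L7 after prednisolone, and L1 goes from 4.50 at 6am to 11.13 after prednisolone.

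In ChIP-exo an exonuclease trims the immunoprecipitated fragments up to the crosslinked protein, so the ends of reads pile up as borders on each strand. A value in RPM is the tag count divided by the library size in megatags (M). In the order 6am, 6pm and prednisolone, the WT libraries had sizes of 55.7, 43.1 and 54.7 M and the GRdim libraries of 31.6, 43.8 and 45.2 M. GRdim at 6am listed the fewest borders, 14391, while the other lists held 35220 to 66573. A list holds borders above a minimum only, of 3 or 4 tags, so a position without a border is not a count of 0.

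Nearly every GR peak of the loci had a border within 100 bp of its centre. In WT this held for 20 of 20, 22 of 23 and 23 of 23 peaks, against 97.5%, 76.8% and 95.2% of the lists. In GRdim it held for 13 of 13, 16 of 17 and 14 of 14, against 77.2%, 81.9% and 97.0%. With a minimum of 20 tags per border the GRdim counts were 3 of 13, 9 of 17 and 7 of 14. The WT counts were 17 of 20, 18 of 23 and 17 of 23. No share over all peaks is given for this minimum, which is a different RPM in libraries of different size. Over the whole lists the median border held 13, 18 and 14 tags in WT and 11, 12 and 12 in GRdim.

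Summed over each window, the fibrinogen borders in WT carried 68.3 RPM at 6am, 66.9 RPM at 6pm and 30.4 RPM with prednisolone. Those in GRdim carried 28.5, 20.5 and 15.2 RPM. The lowest value in both genotypes was the one after prednisolone. The WT ratio of prednisolone to 6am was 0.445 (95% interval 0.420 to 0.471), with 82 borders against 200 and a ratio of RPM per border of 1.08. Fewer borders were thus listed, at a similar mean RPM. Since borders below the minimum leave the list, this does not tell fewer borders from weaker ones. Over all GR regions of the series the same ratio was 0.944. That sum takes only borders inside GR regions, while a window sum takes every border of the window. In GRdim the fibrinogen ratio was 0.535 (0.484 to 0.591), with 46 borders against 68 and 0.791 per border, where all GR regions gave 1.78. Intervals on tags cover counting error only, and reads without molecular identifiers are not independent molecules.

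The other loci moved otherwise. The Lcn2 borders carried 28.6, 38.4 and 28.8 RPM in WT and 6.89, 15.7 and 10.1 RPM in GRdim, with 6pm the highest in both. Their ratio of 6pm to 6am was 1.34 in WT and 2.28 in GRdim, against 1.54 and 2.08 over all GR regions. Lcn2 thus moved at 6pm in the direction of all GR regions. The same ratio was 0.980 and 0.720 at fibrinogen and 0.986 and 1.11 at the metallothioneins. The metallothionein borders carried 36.5, 36.0 and 53.0 RPM in WT, with the highest value after prednisolone, and 3.48, 3.86 and 3.56 RPM in GRdim. The metallothionein ratio of prednisolone to 6am was 1.45 (1.37 to 1.54) in WT, with 79 borders against 72 and 1.32 per border. In GRdim it was 1.03 (0.799 to 1.32), with 14 borders against 9 and 0.659 per border.

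WT exceeded GRdim at every locus and in every condition in these libraries. At the metallothioneins the ratio was 10.5 at 6am (8.67 to 12.8, 72 borders against 9, 1.31 per border), 9.34 at 6pm (7.96 to 11, 43 against 14, 3.04 per border) and 14.9 after prednisolone (12.7 to 17.5, 79 against 14, 2.63 per border). At fibrinogen it was 2.40, 3.27 and 2.00, with 200 borders against 68, 101 against 57 and 82 against 46, and 0.816, 1.84 and 1.12 per border. At Lcn2 it was 4.15, 2.45 and 2.84, with 101 borders against 17, 69 against 52 and 79 against 34, and 0.698, 1.85 and 1.22 per border. Over all GR regions it was 3.92, 2.90 and 2.08, with 0.847, 1.94 and 1.58 per border. The fibrinogen and Lcn2 ratios lay on either side of these values. The metallothionein ratios were above them in all 3 conditions, with intervals that did not include them. Window sums also take borders outside GR regions, so these values are not like for like.

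**Figure D3:**
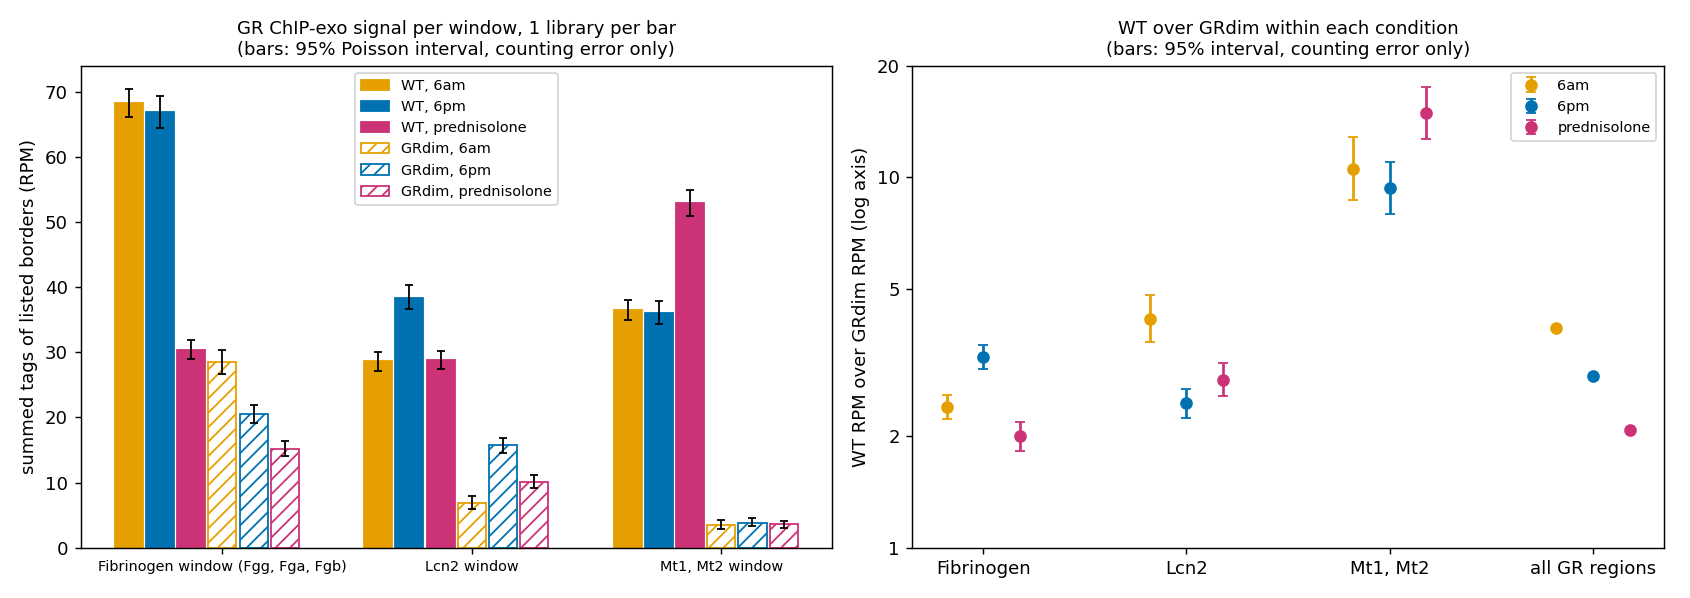
Left, summed RPM of the listed GR ChIP-exo borders in each window, 1 library per bar (filled WT, hatched GRdim, 1 colour per condition), with 95% Poisson intervals. Right, the ratio of WT to GRdim RPM on a log axis for the 3 windows and for all GR regions, with 95% counting intervals. The windows take every border, and all GR regions only the borders inside them. The metallothionein ratios lie at 9.34 to 14.9 and the others at 2.00 to 4.15.

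At single regions the same values showed how much of these sums lay in each region. Borders outside every GR region also counted in the window sums. In GRdim at the metallothioneins, 5 of 9 borders at 6am, 1 of 14 at 6pm and 5 of 14 after prednisolone lay outside. In WT the counts there were 12 of 72, 0 of 43 and 20 of 79. Over the whole GRdim lists, 11289 of 14391, 29608 of 35658 and 27780 of 35220 borders lay inside GR regions. The 5 GRdim borders outside at 6am lay at 96738346 to 96738421, in the C/EBPβ region chr8:96738275-96738476. WT libraries listed borders there as well, at 6am and after prednisolone. M4 carried 16.5, 11.8 and 22.2 RPM in WT. In GRdim it had no listed border at 6am, 1.05 RPM at 6pm and 0.421 RPM after prednisolone. After prednisolone the ratio was 52.7 (33.6 to 87.9), from 20 borders against 2, and 0.466% of the 5792 GR regions with borders in both libraries had a ratio as high. By the difference in RPM between WT and GRdim after prednisolone, M4 ranked 69 and M2 77 of 15329 regions.

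M2 carried 14.7, 18.2 and 21.3 RPM in WT and 1.17, 1.30 and 0.819 RPM in GRdim. The ratio was 12.6 (9.06 to 18, 26 borders against 3), 14 (10.7 to 18.7, 18 against 5) and 26.1 (18.8 to 37.2, 23 against 3). M2 and M4 together held 43.5 of the 53.0 RPM of the window in WT after prednisolone, 82.2% of its tags, and 34.8% of the window's tags in the matching GRdim library. M1 carried 2.35, 5.17 and 2.38 RPM in WT and 0.221, 1.28 and 1.11 RPM in GRdim. Its ratio was 10.6 at 6am (5.01 to 26.9, 10 borders against 1), 4.05 at 6pm (3.01 to 5.53, 9 against 4) and 2.15 after prednisolone (1.54 to 3.04, 10 against 4). M3 and M5 had borders in WT libraries alone, at 1.43 RPM after prednisolone for M3 and 0.649 RPM at 6pm for M5.

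At fibrinogen, F2 carried 9.75, 19.0 and 7.24 RPM in WT and 0.854, 3.22 and 1.44 RPM in GRdim. Its ratio of WT to GRdim was 11.4 (7.76 to 17.5, 23 borders against 2), 5.89 (4.92 to 7.10, 19 against 7) and 5.03 (3.86 to 6.65, 16 against 5). F1 carried 5.03, 5.89 and 2.18 RPM in WT and had no listed border in any GRdim library. F9 carried 13.3, 13.1 and 3.90 RPM in WT and 5.03, 1.92 and 0.686 RPM in GRdim. The ratio of prednisolone to 6am at F9 was 0.294 (0.251 to 0.342, 6 borders against 21) in WT and 0.137 (0.0898 to 0.202, 2 against 13) in GRdim.

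F4 and F12 also carried less after prednisolone in WT. F4 carried 4.83, 6.84 and 1.13 RPM in WT and 1.20, 1.67 and 1.28 RPM in GRdim, so the genotypes met after prednisolone (ratio 0.883, 0.607 to 1.29, 4 borders against 5). F12 carried 4.18, 0.997 and 1.17 RPM in WT and 1.39, 0.411 and 0.266 RPM in GRdim, with the highest value at 6am in both. F10 carried 2.64, 4.27 and 1.46 RPM in WT and 0.474, 2.10 and 0.775 RPM in GRdim.

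At F11 and F14 the WT value was the higher one at 6am and the GRdim value at 6pm. F11 carried 2.26, 2.09 and 1.37 RPM in WT and 1.42, 3.10 and 1.84 RPM in GRdim, a ratio of 1.59 (1.12 to 2.29, 8 borders against 4), 0.672 (0.509 to 0.884, 5 against 9) and 0.746 (0.539 to 1.03, 6 against 6). F14 carried 2.57, 2.30 and 2.45 RPM in WT and 1.58, 3.33 and 2.50 RPM in GRdim, a ratio of 1.62 (1.17 to 2.29, 8 borders against 3), 0.689 (0.528 to 0.895, 7 against 9) and 0.979 (0.757 to 1.27, 8 against 7). After prednisolone both intervals included 1. At 6pm 87.4% and 87.0% of the 7006 regions with borders in both libraries had a ratio as high or higher, with a median of 1.89. At both regions the GRdim ChIP-seq score at 6pm was nevertheless the lower one.

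F8 carried 6.03, 3.39 and 4.43 RPM in WT and 5.03, 2.33 and 3.87 RPM in GRdim, although no GRdim list held a peak there. The ratio was 1.20 (0.991 to 1.46, 16 borders against 9), 1.45 (1.12 to 1.89, 5 against 4) and 1.14 (0.936 to 1.40, 9 against 8). A plus-strand border at position 82824510 and a minus-strand border at 82824549 were listed at F8 in all 6 libraries. The plus border held 0.628, 0.649 and 0.914 RPM in WT and 0.948, 0.730 and 0.996 RPM in GRdim, and the minus border 0.987, 1.11 and 1.06 RPM in WT and 1.87, 0.936 and 1.02 RPM in GRdim. The adjacent F7 changed between conditions: it carried 5.26, 2.13 and 0.146 RPM in WT and 4.39, 0.776 and 0.908 RPM in GRdim. Its ratio of prednisolone to 6am was 0.0278 (0.0119 to 0.0555, 1 border against 16) in WT and 0.207 (0.142 to 0.295, 4 against 7) in GRdim.

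At Lcn2, L7 carried 6.23, 11.5 and 5.94 RPM in WT and 1.04, 3.38 and 2.68 RPM in GRdim. L9 carried 2.55, 4.11 and 6.14 RPM in WT, the highest value after prednisolone. In GRdim L9 had no listed border at 6am, 0.662 RPM at 6pm and 0.221 RPM after prednisolone, a ratio after prednisolone of 27.8 (14.9 to 58.4, 10 borders against 1). L4 carried 2.69, 3.36 and 0.713 RPM in WT and 2.50, 1.32 and 1.59 RPM in GRdim, so after prednisolone GRdim held the higher value (ratio 0.447, 0.295 to 0.670, 2 borders against 4). L8 carried 3.72, 6.03 and 5.41 RPM in WT and 0.537, 2.60 and 1.55 RPM in GRdim, with 6pm the highest in both. L6 carried 0.520, 1.02 and 1.24 RPM in WT and 0.348, 1.53 and 0.996 RPM in GRdim. The GRdim value was the higher one at 6pm and the lower one at 6am and after prednisolone. L1 had no listed border in the 6am and 6pm libraries, and carried 1.12 RPM in WT and 0.199 RPM in GRdim after prednisolone, the condition in which its peaks were listed.

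Border pairs were taken as the plus-strand and minus-strand borders with the most tags within 100 bp of a peak centre. In WT 59 of 66 peaks of the loci had borders on both strands, against 61.0% of all peaks, and in GRdim 36 of 44, against 56.9%. In WT 11 of the 59 pairs lay 10 to 12 bp apart, against 8.91% of all pairs, and 6 lay 29 to 31 bp apart, against 8.74%. In GRdim 3 of 36 pairs lay 10 to 12 bp apart, against 4.51%, 1 lay 24 to 26 bp apart, against 5.17%, and none 29 to 31 bp apart, against 2.30%. With the closest opposite borders in place of the strongest, the counts at 10 to 12 bp were 14 of 56 pairs in WT and 7 of 33 in GRdim. None then lay 29 to 31 bp apart in either genotype. That setting takes the shortest distance at each peak, so it favours short spacings by construction. No share over all pairs is given for it, and the shares above do not apply to it. The median distance was 22.0 bp in WT (31 bp over all peaks) and 37.5 bp in GRdim (36.0 bp). Pairs of 1 region in several libraries share their position and are not independent.

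The 10 to 12 bp spacing recurred at a few regions. At L9 the pair lay at 32276388 and 32276398 at 6am (37 and 46 tags), at 32276388 and 32276400 at 6pm (59 and 52 tags) and at 32276389 and 32276399 after prednisolone (95 and 79 tags), all in WT. The RPM of the plus border was 0.664, 1.37 and 1.74. GRdim listed both borders of the pair at 6pm alone, at 0.183 RPM (plus) and 0.228 RPM (minus). At M2 the pair lay at 96695428 and 96695439 at 6am (115 and 105 tags) and at 96695427 and 96695439 after prednisolone (182 and 125 tags). At 6pm the strongest minus border at M2 lay at 96695442, a spacing of 15 bp. No GRdim library listed a border at either M2 position. At M4 the strongest pair lay 10 bp apart at 6am (96702905 and 96702915, 103 and 138 tags), 31 bp apart at 6pm and 28 bp apart after prednisolone, because another plus-strand border, within 3 bp of 96702888, held more tags in those libraries. None of these positions was listed in GRdim.

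Borders 10 to 12 bp apart were listed in both genotypes at L8 and L9, among other regions. At L8 those at 32274999 and 32275010 each held 13 tags in GRdim after prednisolone, and more in each WT library. L4 was the region where the strongest pair was this narrow in both genotypes. Its plus border at 32264854 and minus border at 32264864, 10 bp apart within a tolerance of 3 bp, held 46 and 42 tags in WT at 6am, 37 and 33 at 6pm, 28 and 21 in GRdim at 6am and 22 and 22 in GRdim after prednisolone. In WT after prednisolone the plus border alone was listed, with 30 tags. In RPM the plus border was at 0.826 in WT and 0.885 in GRdim at 6am. At F7 a pair 13 bp apart in WT at 6am (82824294 and 82824307, 50 and 47 tags) stood beside a pair 12 bp apart in GRdim at 6am (82824294 and 82824306, 31 and 32 tags). At L7 a pair 29 bp apart (32274071 and 32274100) recurred in WT at 6am and after prednisolone. At F9 the plus border at 82829977 held 3.09, 3.25 and 1.65 RPM in WT, 0.537 and 0.434 RPM in GRdim at 6am and 6pm, and was not listed in GRdim after prednisolone.

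Grouping borders of 1 strand within 3 bp across libraries gave 743 border positions in the windows. Of these, 491 (66.1%) were listed in WT libraries only, 115 (15.5%) in GRdim libraries only and 137 (18.4%) in both, against 60.6%, 22.9% and 16.5% of 174967 positions of the whole series. The shared positions were 54.4% of the GRdim positions and 21.8% of the WT positions, against 41.9% and 21.4% over the series. Positions found in all 3 WT libraries and in no GRdim library numbered 22 of 743, against 1.82% over the series. Of the 22, 12 lay among the 153 positions of the metallothionein window (7.84%), 5 among 359 at fibrinogen (1.39%) and 5 among 231 at Lcn2 (2.16%). Positions found in all 6 libraries numbered 5, against 0.825% over the series: 4 at fibrinogen (1 each in F4 and F14 and both in F8) and 1 at M2. The M2 position, at 96695265 on the plus strand, held 0.862, 0.928 and 0.677 RPM in WT and 0.379, 0.274 and 0.244 RPM in GRdim. The library sizes and lengths of the lists differ between genotypes, and their part in these counts was not tested.

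The GRdim binding that was left at M2 lay on one side of the region. The GRdim peak centre at M2 was shifted by -91 bp at 6am, -80 bp at 6pm and -139 bp after prednisolone from the WT centre, where the median shift over all shared peaks with C/EBPβ was 19.0, 16.0 and 19.0 bp in either direction. All GRdim borders at M2 lay on that side, at 96695212 to 96695332, while the 10 to 12 bp WT pair lay at 96695427 to 96695439. At M4 the GRdim centre at 6pm lay 50 bp to the right of the WT centre, and 43 bp from the C/EBPβ centre against 93 bp for WT. At M2 the order depended on the condition: the GRdim centre was the nearer one to C/EBPβ at 6am (6 bp against 97 bp), and the WT centre at 6pm (19 bp against 61 bp) and after prednisolone (37 bp against 102 bp). Over the loci the GRdim centre was the nearer one in 7 of 11 regions at 6am, 7 of 14 at 6pm and 5 of 11 after prednisolone, against 51.4%, 47.1% and 47.3% of all shared peaks.

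**Figure D4:**
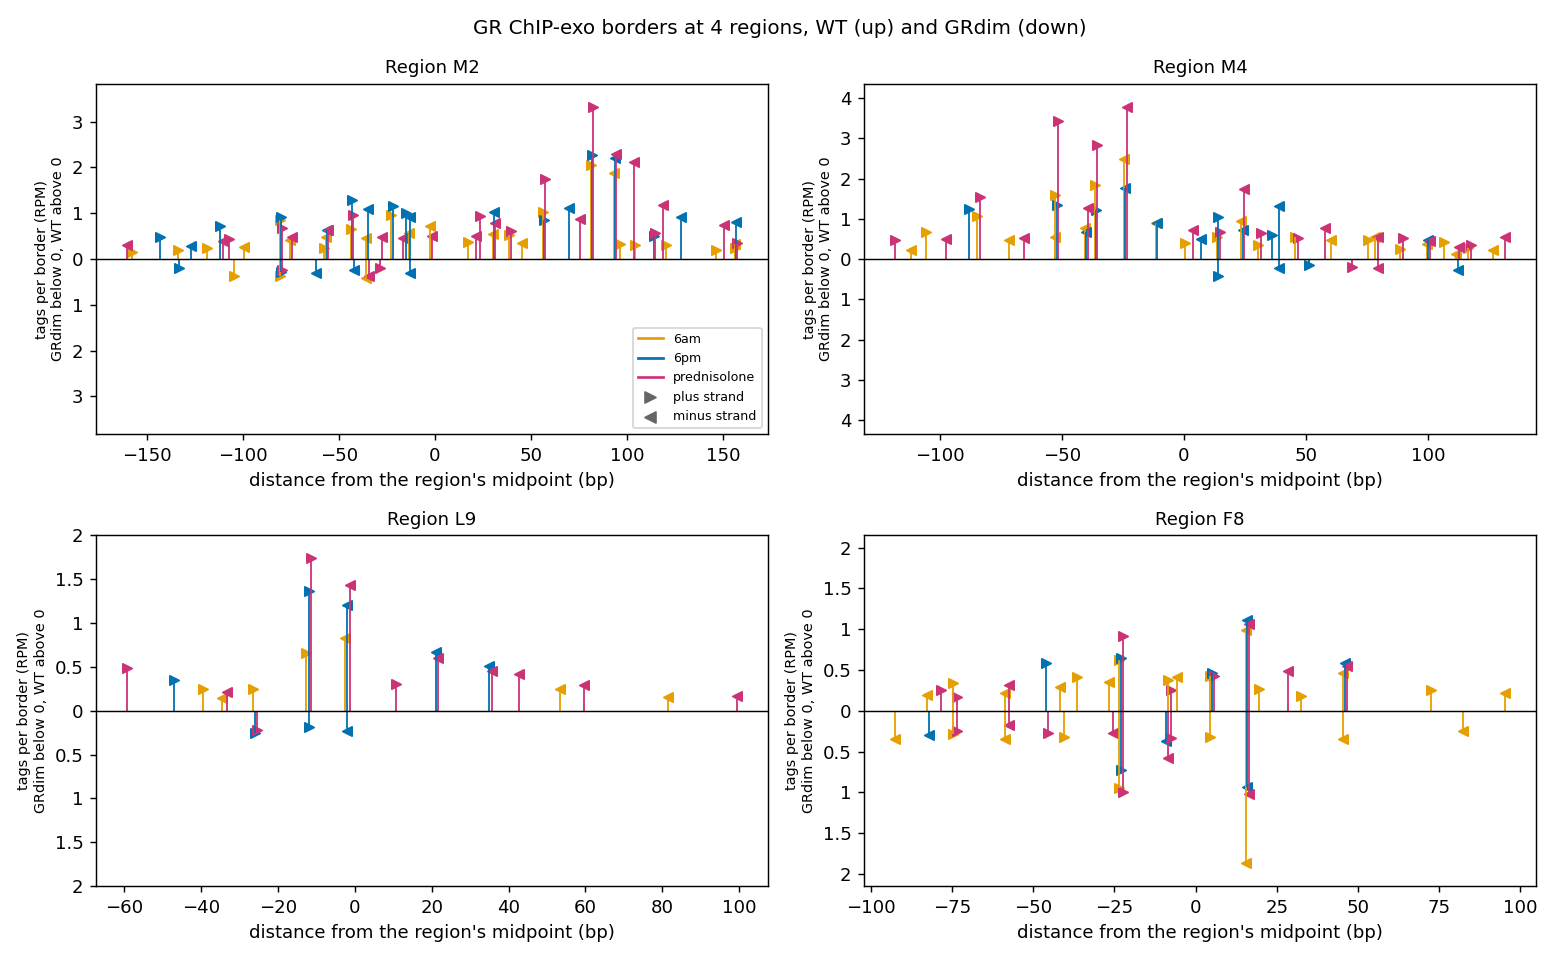
GR ChIP-exo borders at regions M2, M4, L9 and F8: distance from the region's midpoint in bp (horizontal) and RPM per border (vertical, WT above the line and GRdim below it), with triangles pointing right for plus-strand and left for minus-strand borders and 1 colour per condition. The tall WT pairs of M2, M4 and L9 have no GRdim counterpart above 0.228 RPM at the same positions, while the pair of F8 stands in all 6 libraries.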

How the data were processed

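ChIP-seq and ChIP-exo lists of GR covered 6 groups and ChIP-seq lists of C/EBPβ 3, each deposited as 1 list from a pool of 2 replicates per the labels. Bowtie, HOMER and mm9 are named per the submitters' processing notes, with roles and versions not given in the sources used here. Peaks are intervals of 200 bp with a score that the authors assigned, of unstated unit. Borders are 10 bp wide and carry the authors' tag count, their RPM value per the file headers, and a deposited height signal that was not used. A list leaves out weaker binding, and the peak and border lists differ in length and library size.

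From these files, peaks were merged where they overlapped by at least 1 bp. Borders were taken by their centre, within a window, within a region or within 100 bp of a peak centre. Library size was the tag count divided by the RPM. Shares have Wilson intervals, tag sums Poisson intervals and ratios exact conditional ones, at 95%. The steps were tested on simulated data, with pandas 2.3.3, scipy 1.17.1 and numpy 2.4.6 under Python 3.11.15, and drawn with matplotlib 3.10.9. The members and lists were chosen with earlier results of these data known. Named in full were GR regions in at least 2 GR lists, regions of 1 genotype with a score of at least 4, and the highest C/EBPβ peak per locus and list without GR. The 2 RNA polymerase II and 12 input samples, and other acute-phase genes, were not analysed here. Alternatives are in the closing section.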

Additional observations from a re-analysis of the deposited data

Results flagged for a closer look

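At 3 regions the ChIP-exo signal moved in opposite directions in the genotypes between the same conditions, each by more than its counting interval. None of these differences was tested, and each value compares 1 library with 1 other. At F2 the ratio of prednisolone to 6am was 0.743 (0.651 to 0.847) in WT and 1.69 (1.06 to 2.75) in GRdim, from 16 borders against 23 and 5 against 2. At L3 the same ratio was 0.751 (0.615 to 0.914) in WT and 1.65 (1.13 to 2.45) in GRdim, from 10 borders against 14 and 7 against 3. Over all GR regions it was 0.944 in WT and 1.78 in GRdim, so both regions moved as the sum of all regions did in their genotype. At L10 the ratio of 6pm to 6am was 2.38 (1.58 to 3.63) in WT and 0.344 (0.145 to 0.763) in GRdim, from 4 borders against 3 and 1 against 2, where all GR regions gave 1.54 and 2.08. L10 rests on 1 GRdim border at 6pm, with 0.228 RPM.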

How the results depend on the processing

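Of 58 values recomputed under other settings, 46 moved by less than their interval or by less than 1.5 times for counts. With the higher-scoring 50% of each list, the metallothionein window held 3 GR regions. In that setting 33.3% of WT peaks of the loci after prednisolone were listed in GRdim, without a share over all peaks beside it. With borders of at least 20 tags, the share of peaks of the loci with a border was 78.3% at 6pm and 73.9% after prednisolone in WT. In GRdim it was 23.1%, 52.9% and 50.0% at 6am, at 6pm and after prednisolone. No share over all peaks is given at this minimum. With the closest opposite borders in place of the strongest, 0 of 56 WT pairs lay 29 to 31 bp apart. Of 33 GRdim pairs, 7 lay 10 to 12 bp and 3 lay 24 to 26 bp apart. That setting favours short spacings by construction, so it cannot show how stable the longer ones are. The GRdim count at 24 to 26 bp was 2 of 34 pairs with borders within 60 bp and 0 of 5 with at least 20 tags. No share over all pairs is given for these settings. The cause of the other changes was not tested. Widening or narrowing the windows by 20 kb, matching peaks by centres within 100 bp and lists of equal length moved no value past these limits. Matched by centres, 65.0% (6am), 78.3% (6pm) and 60.9% (prednisolone) of WT GR peaks of the loci had a C/EBPβ peak. In the main setting these shares were 75.0%, 82.6% and 78.3%, with wide intervals that start at 53.1%, 62.9% and 58.1%. No share over all peaks is given for matching by centres. No paired analysis was possible because each list is a pool of both replicates. Joining regions up to 10 bp apart, an alternative added after seeing the data, moved no count past these limits. The lists hold borders above a minimum of 3 or 4 tags, which limits what can be said of weaker borders.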
